A study of Homo sapiens with 12 samples.

Results

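The nuclear-encoded subunits of the mitochondrial respiratory chain, complexes I to IV, were followed as a set of 54 genes listed by name from the known make-up of the complexes. The rule uses no measured value, but the list was drawn up with earlier results of these data known. Of these, 48 had a probe set that the array annotation ties to 1 gene, among 19775 genes measured that way. They were 30 of 33 listed subunits of complex I, 3 of 4 of complex II, 5 of 7 of complex III and 10 of 10 of complex IV. NDUFC2, NDUFS5, NDUFS8 and UQCRH were covered only by probe sets that name several genes, and SDHB and UQCRFS1 were not analysed here.

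The measurements came from U937, an established human myelomonocytic cell line. One population had been transduced with an expression vector for EVI1, a zinc finger transcription factor of the MECOM locus, and the other with the empty vector. Each was kept for 24 h with 50 ng/ml TPA or with an equal share of its solvent, ethanol. TPA is a phorbol ester, a lasting activator of protein kinase C under which U937 cells stop dividing and mature in the direction of macrophages. The groups were therefore EVI1-labelled cells in TPA, EVI1-labelled cells in ethanol, empty vector cells in TPA and empty vector cells in ethanol, with 3 Affymetrix arrays each. The vector's promoter, and whether a population is 1 clone or a pool, are not given in the sources used here.

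The respiratory chain passes electrons from NADH and succinate to oxygen and pumps protons across the inner mitochondrial membrane, and ATP synthase uses the returning protons. Complex I takes electrons from NADH in an arm that reaches into the matrix and pumps protons in an arm buried in the membrane. Complex II oxidises succinate, complex III hands electrons to cytochrome c, and complex IV reduces oxygen. Most subunits are encoded in the nucleus and a smaller number on mitochondrial DNA, so each complex other than complex II is assembled from the products of both genomes. Monocytes that mature into macrophages are known to adjust their energy metabolism, and the balance of respiration and glycolysis differs with the stimulus.

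All values below are log2 signals after RMA, the normalization that the authors applied, so a difference of 1 is a doubling or a halving of the signal. A gene was called changed where limma's adjusted p (Benjamini-Hochberg over 19775 genes) was under 0.05. Errors of differences are standard errors (SE) of the fit, and errors of group means are SD with n = 3. Signals of different probe sets are not ranked as RNA levels, because probes differ in how well they bind. The mean signals of the 48 members ran from 9.40 to 13.3, all above the upper quartile of 8.47 over all genes, so none of them was near the dim end of the array.

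The 12 arrays had medians between 5.07 and 5.11, and arrays of a group correlated at 0.993 to 0.998. The 5 probe sets of MECOM stayed between 2.68 and 3.32 in EVI1-labelled cells and between 2.59 and 3.30 in empty vector cells, with a smallest adjusted p of 0.102, so these arrays do not show EVI1 RNA from the vector and the population is called EVI1-labelled throughout. Of 8 myeloid markers 6 were measured, of which 3 rose and 2 fell with TPA in EVI1-labelled cells and 4 rose and 2 fell in empty vector cells, with medians of 0.32 and 0.35. They ranged between ITGAM, at 3.93 ± 0.20 and 4.94 ± 0.20, and LYZ, at -1.63 ± 0.15 and -1.29 ± 0.15. Markers of T and B cells, erythroid cells, megakaryocytes, and epithelial cells and fibroblasts were called in neither TPA comparison, with unadjusted p under 0.05 for 1 gene in EVI1-labelled and 0 in empty vector cells. Their group means stayed at or below 7.38. In bulk RNA, fewer cells of a type and less RNA per cell cannot be told apart.

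TPA moved individual subunits in both directions, and most of the larger falls were in complex I, which held 30 of the 48 measured members. In EVI1-labelled cells 20 of 48 members were called (41.7%), 12 lower and 8 higher, where 40% of all genes were called, 20.6% lower and 19.4% higher. In empty vector cells 25 of 48 were called (52.1%), 19 lower and 6 higher, where 43.2% of all genes were called, 22.5% lower and 20.7% higher. Among genes at or above the median brightness, which all members were, 67.7% and 70.5% were called in these comparisons. The shares of members called thus lay above those over all genes and below those over this brighter set. The members sat at percentiles 84.7 to 99.6 of brightness, so the brighter set also holds much dimmer genes. No closer match in brightness was made. Without overlap between the arrays of the groups, 18 members were lower and 10 higher in EVI1-labelled cells, against 23.8% and 22.8% of all genes. In empty vector cells these were 26 lower and 13 higher, against 25.3% and 25% of all genes.

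Large changes were rarer among the members than among all genes, while the typical size of a change was close to that of all genes. The median difference over the members was -0.06 in EVI1-labelled cells, where all genes had a median of 0.003, and -0.12 in empty vector cells, where all genes had a median of 0.017. A difference of at least 1 in either direction was seen for 0 of 48 members in EVI1-labelled cells and for 1 of 48 in empty vector cells, against 13.5% and 15.5% of all genes. Without regard to sign, the median difference in EVI1-labelled cells was 0.17 over the members, 0.19 over all genes and 0.48 over genes at or above the median brightness. In empty vector cells these were 0.20, 0.21 and 0.53.

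**Figure D1:**
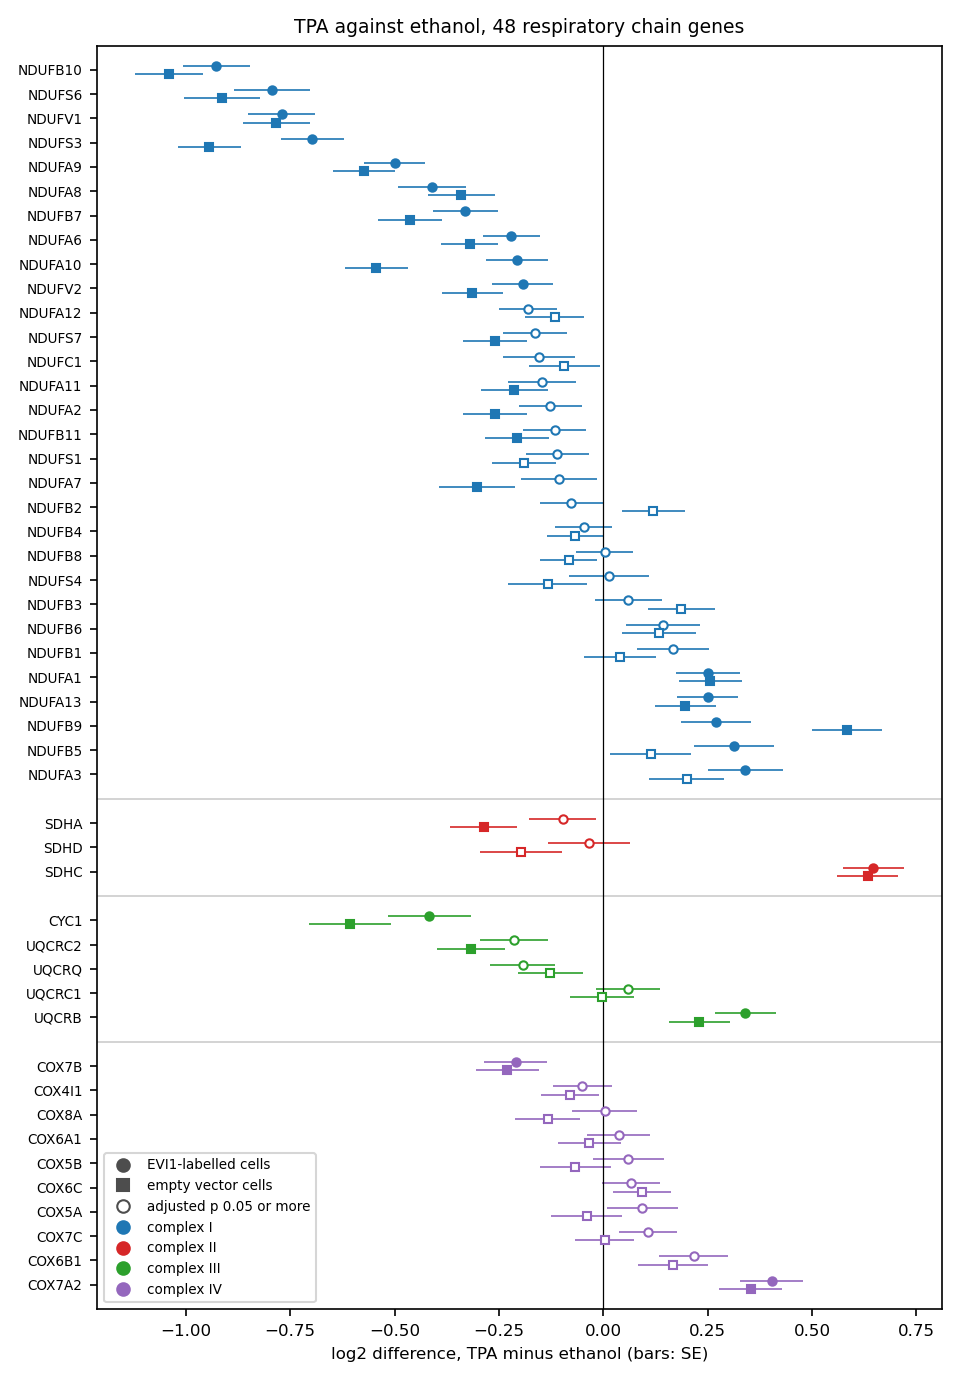
Log2 differences between TPA and ethanol for the 48 measured subunits, grouped by complex (colours), in EVI1-labelled cells (circles) and empty vector cells (squares). Bars are SE, and filled symbols have an adjusted p under 0.05. The largest falls are NDUFB10, NDUFS6, NDUFV1 and NDUFS3 of complex I, the largest rise is SDHC of complex II, and 8 of 10 subunits of complex IV are open in each population.

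The signs were shared between the populations where both were called. There were 12 members lower in both and 6 higher in both, 0 went in opposite directions, and 21 were called in neither. This overlap was not counted over all genes, of which 40% and 43.2% were called. It is therefore not given as a trait of the members. Another 7 were called lower only in empty vector cells (NDUFA2, NDUFA7, NDUFA11, NDUFB11, NDUFS7, SDHA and UQCRC2) and 2 higher only in EVI1-labelled cells (NDUFA3 and NDUFB5). None of these 9 members had a difference between the responses that passed the test, as given further on.

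Complex I, which had 30 measured subunits, showed 10 lower and 5 higher in EVI1-labelled cells and 15 lower and 3 higher in empty vector cells. That is 50% and 60% called, where 40% and 43.2% of all genes were. These shares lay below the 67.7% and 70.5% of genes at or above the median brightness. The largest fall in complex I was that of NDUFB10, an accessory subunit of the membrane arm that faces the intermembrane space. NDUFB10 read 10.26, 10.44 and 10.25 in EVI1-labelled cells with TPA, against 11.19, 11.23 and 11.31 in ethanol. In empty vector cells it read 10.30, 10.18 and 10.24 with TPA, against 11.31, 11.21 and 11.32 in ethanol. Every TPA array lay below every ethanol array. The differences were -0.93 ± 0.08 (adjusted p = 3.22e-07) and -1.04 ± 0.08 (adjusted p = 8.15e-08), which leaves 0.526 and 0.486 of the ethanol signal. A second probe set of the gene gave -1.05 and -1.12.

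NDUFS3, a core subunit of the matrix arm on the path of electrons to ubiquinone, read 10.58, 10.62 and 10.62 with TPA in EVI1-labelled cells, against 11.23, 11.29 and 11.39 in ethanol. In empty vector cells it read 10.48, 10.35 and 10.37 with TPA, against 11.27, 11.38 and 11.38 in ethanol. The groups did not overlap in either population, and the differences were -0.70 ± 0.08 (adjusted p = 3.26e-06) and -0.94 ± 0.08 (adjusted p = 1.27e-07).

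The promoters of 3 members are shown because of their place in the results: NDUFB10 had the largest fall, NDUFS3 the largest among core subunits in empty vector cells, and NDUFA8 was called in all 4 comparisons between groups. Capitals mark matches to motifs of NRF1, a transcription factor known for regulating respiratory genes, and of the ETS family, to which GABPA belongs. The windows are RefSeq sequences on GRCh38.p14 from 250 bases before to 50 after the gene's start, written in the direction of transcription: chr16:1959288-1959587 (plus strand) for NDUFB10, chr11:47578824-47579123 (plus strand) for NDUFS3 and chr9:122159730-122160029 (minus strand) for NDUFA8.
NDUFB10: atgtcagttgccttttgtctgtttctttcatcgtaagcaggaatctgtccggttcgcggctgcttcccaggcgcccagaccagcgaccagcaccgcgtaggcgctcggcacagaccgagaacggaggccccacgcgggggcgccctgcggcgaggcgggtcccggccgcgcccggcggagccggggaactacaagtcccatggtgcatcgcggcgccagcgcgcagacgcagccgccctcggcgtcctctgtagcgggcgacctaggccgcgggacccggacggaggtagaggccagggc
NDUFS3: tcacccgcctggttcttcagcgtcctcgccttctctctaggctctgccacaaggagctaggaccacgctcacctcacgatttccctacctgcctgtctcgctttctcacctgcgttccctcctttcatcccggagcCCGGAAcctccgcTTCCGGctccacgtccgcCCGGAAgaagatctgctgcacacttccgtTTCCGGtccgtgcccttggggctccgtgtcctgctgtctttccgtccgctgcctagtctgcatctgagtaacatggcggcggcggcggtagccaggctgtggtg
NDUFA8: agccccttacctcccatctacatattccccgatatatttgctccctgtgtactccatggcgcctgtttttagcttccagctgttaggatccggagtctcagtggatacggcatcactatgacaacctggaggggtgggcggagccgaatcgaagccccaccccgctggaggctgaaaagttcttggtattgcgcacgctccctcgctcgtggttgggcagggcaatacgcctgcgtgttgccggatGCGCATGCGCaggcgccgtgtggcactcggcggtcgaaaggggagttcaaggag
The NRF1 motif was searched as GCGCATGCGC, which reads the same on both strands, and the ETS core as CCGGAA or its reverse complement TTCCGG. The window of NDUFS3 holds 4 ETS cores, that of NDUFA8 holds 1 NRF1 motif and no ETS core, and that of NDUFB10 holds neither. The table held windows for 46 of the 54 listed genes. The NRF1 motif was found in 3 of them (6.52%: NDUFA8, NDUFB4 and SDHD), against 1.52% of 27305 genes, and the ETS core in 21 (45.7%), against 20.1%. The ETS core and its reverse complement share the letters CCGG, so matches can overlap, and a match describes the sequence without showing a binding site.

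NDUFS6, an accessory subunit added with the NADH-binding part of complex I, read 12.02, 11.88 and 11.78 with TPA in EVI1-labelled cells, against 12.66, 12.69 and 12.71 in ethanol. The empty vector cells gave 11.84, 11.55 and 11.74 with TPA, against 12.55, 12.63 and 12.69 in ethanol. The groups were apart in both populations, with differences of -0.79 ± 0.09 and -0.91 ± 0.09 (adjusted p = 5.64e-06 and 1.19e-06). NDUFV1, the core subunit that binds NADH and flavin mononucleotide, read 9.89, 9.91 and 10.05 with TPA in EVI1-labelled cells, against 10.64, 10.77 and 10.75 in ethanol. The empty vector cells gave 10.18, 10.06 and 10.09 with TPA, against 10.91, 10.96 and 10.81 in ethanol. It too fell without overlap, with differences of -0.77 ± 0.08 and -0.78 ± 0.08 (adjusted p = 2.02e-06 and 1.44e-06). A second, dimmer probe set of NDUFV1, with a mean of 6.58, was not called and gave -0.01 and 0.06, and the mean of both gave -0.39 in EVI1-labelled cells.

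Other subunits that fell in both populations were NDUFA9, which sits where the 2 arms meet, NDUFA6, NDUFA8, NDUFA10, NDUFB7 and the iron-sulfur subunit NDUFV2. NDUFA9 differed by -0.50 ± 0.07 and -0.57 ± 0.07 in EVI1-labelled and empty vector cells, and NDUFA8 by -0.41 ± 0.08 and -0.34 ± 0.08. NDUFA10, an accessory subunit with a nucleoside kinase fold, differed by -0.21 ± 0.07 in EVI1-labelled cells (adjusted p = 0.0410) and by -0.54 ± 0.07 in empty vector cells (adjusted p = 2.78e-05).

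Subunits of the matrix arm were called lower more often than those of the membrane arm, a split that was chosen after the values were seen and is given without a test. In EVI1-labelled cells 6 of 12 matrix arm members were lower and 0 higher, and 4 of 18 membrane arm members were lower and 5 higher. Over all genes 20.6% were lower and 19.4% higher. In empty vector cells 9 of 12 matrix arm members were lower and 0 higher, and 6 of 18 membrane arm members were lower and 3 higher. Over all genes 22.5% were lower and 20.7% higher. The medians were -0.19 and -0.02 for the matrix and membrane arms in EVI1-labelled cells and -0.31 and -0.01 in empty vector cells. Of the 5 measured core subunits (NDUFS1, NDUFS3, NDUFS7, NDUFV1 and NDUFV2), 3 and 4 were called lower in these populations. These are 60% and 80%, where 20.6% and 22.5% of all genes were lower. Some of these calls rest on 1 of several probe sets. In empty vector cells no other probe set was called the same way for NDUFA2, NDUFA7, NDUFS7 and NDUFV1 of the matrix arm. The same held for NDUFA11 and NDUFB7 of the membrane arm, and in EVI1-labelled cells for NDUFV1 and NDUFB7. As the mean of all probe sets, 15 of 48 members were lower in empty vector cells, against 19. In EVI1-labelled cells 12 were lower either way.

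All complex I members that rose belong to the membrane arm. NDUFB9, an accessory subunit of the LYR motif family, read 13.40, 13.21 and 13.40 with TPA in EVI1-labelled cells, against 13.06, 12.97 and 13.17 in ethanol. Empty vector cells gave 13.59, 13.56 and 13.71 with TPA, against 13.04, 13.01 and 13.06 in ethanol. The TPA arrays were higher without overlap in both, with differences of 0.27 ± 0.08 (adjusted p = 0.0191) and 0.58 ± 0.08 (adjusted p = 4.39e-05). The smaller difference was lost in 6 of 20 alternative settings. NDUFA1, a small subunit that spans the membrane, rose by 0.25 ± 0.08 and 0.26 ± 0.08, and NDUFA13, also described as a regulator of cell death, by 0.25 ± 0.07 and 0.20 ± 0.07. The call of NDUFA13 in empty vector cells (adjusted p = 0.0448) was lost in 11 of 20 alternative settings. NDUFA3 rose by 0.34 ± 0.09 and NDUFB5 by 0.31 ± 0.10 in EVI1-labelled cells, and their differences in empty vector cells were 0.20 ± 0.09 and 0.11 ± 0.10. Without replicate 2 of the EVI1-labelled cells in TPA the rise of NDUFB5 was 0.20 and not called.

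Complex II had members moving apart. SDHC, one of the 2 membrane anchors that hold its heme, read 11.06, 11.23 and 11.14 with TPA in EVI1-labelled cells, against 10.51, 10.46 and 10.52 in ethanol. Empty vector cells gave 11.18, 11.18 and 11.15 with TPA, against 10.58, 10.49 and 10.54 in ethanol. All 6 TPA arrays were above all 6 ethanol arrays, with differences of 0.65 ± 0.07 (adjusted p = 4.17e-06) and 0.63 ± 0.07 (adjusted p = 4.43e-06), the largest rises of the set. Of its 7 probe sets, 6 were called higher in both populations. The partner anchor SDHD differed by -0.03 ± 0.10 and -0.20 ± 0.10 and was not called. SDHA, the flavoprotein that oxidises succinate, differed by -0.10 ± 0.08 in EVI1-labelled cells, where it was not called, and fell by 0.29 ± 0.08 in empty vector cells (adjusted p = 0.00918).

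**Figure D2:**
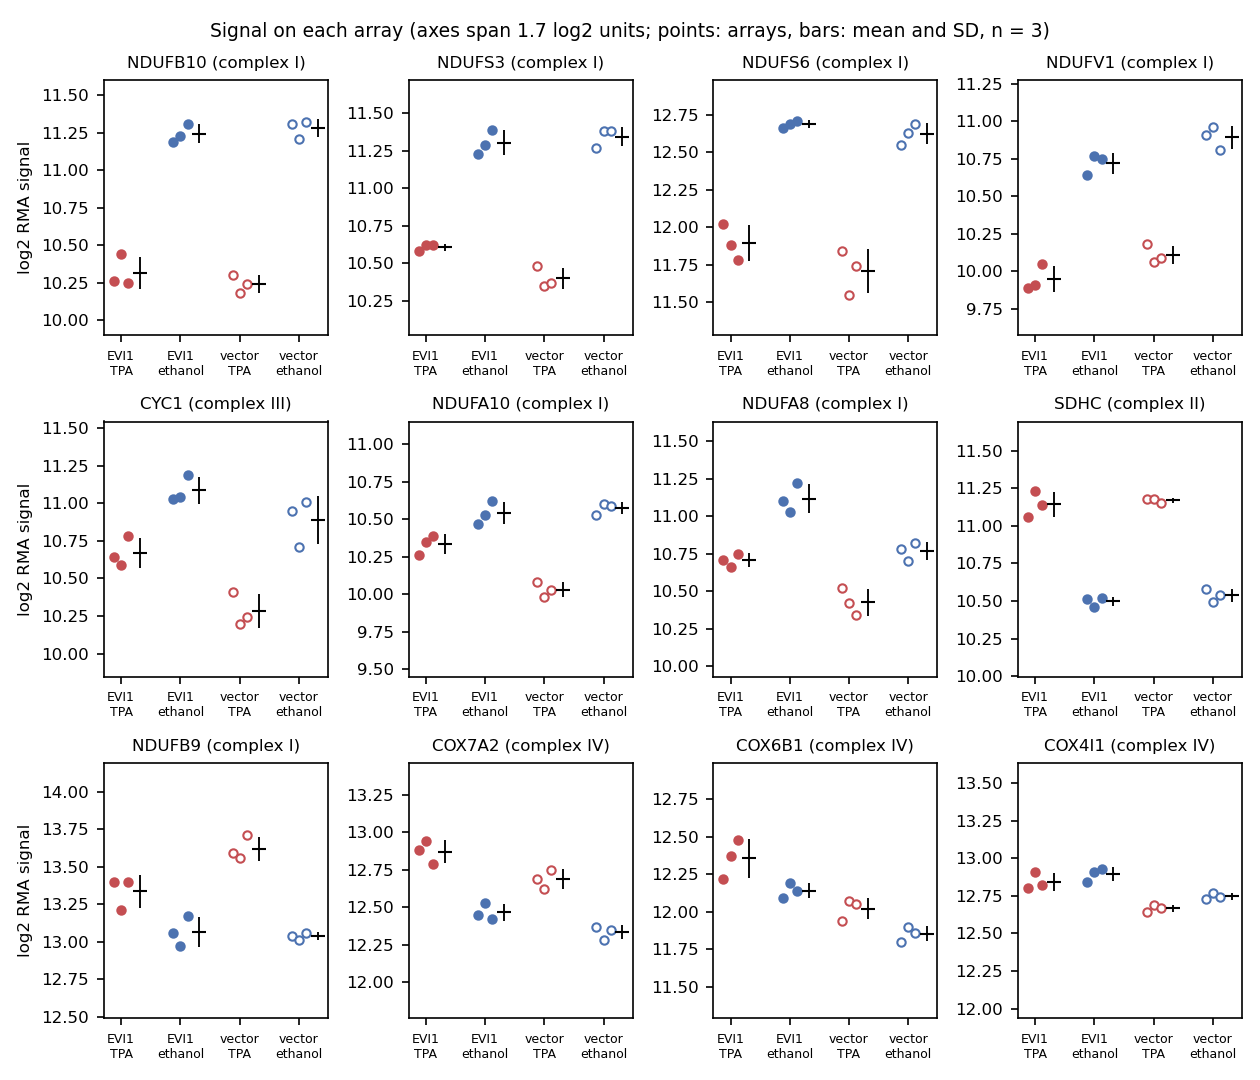
Log2 RMA signal on each of the 12 arrays for 12 subunits, in EVI1-labelled cells with TPA and with ethanol and in empty vector cells with TPA and with ethanol. Points are arrays, bars the mean and SD (n = 3), and every axis spans the same number of log2 units. NDUFB10, NDUFS3, NDUFS6 and NDUFV1 lie lower with TPA and SDHC higher with no overlap in either population, while COX4I1 differs by -0.05 and -0.08.

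In complex III, CYC1, the heme protein that passes electrons to cytochrome c, read 10.64, 10.59 and 10.78 with TPA in EVI1-labelled cells, against 11.03, 11.04 and 11.19 in ethanol. The empty vector cells gave 10.41, 10.20 and 10.24 with TPA, against 10.95, 10.71 and 11.01 in ethanol. The groups did not overlap, and the differences were -0.42 ± 0.10 (adjusted p = 0.00323) and -0.61 ± 0.10 (adjusted p = 1.34e-04). UQCRB, an accessory subunit near the ubiquinone site, rose by 0.34 ± 0.07 and 0.23 ± 0.07. In empty vector cells none of its other probe sets was called higher, and the call was lost in 3 of 20 alternative settings. The core protein UQCRC2 fell by 0.32 ± 0.08 in empty vector cells (adjusted p = 0.00530) and differed by -0.21 ± 0.08 in EVI1-labelled cells, where it was not called. With the mean of its 3 probe sets the call in empty vector cells was lost (adjusted p = 0.124). The other core protein, UQCRC1, differed by 0.06 ± 0.08 and -0.003 ± 0.08, and UQCRQ by -0.19 ± 0.08 and -0.13 ± 0.08, and neither was called.

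Complex IV had the smallest median difference without regard to sign, 0.08 in EVI1-labelled and 0.09 in empty vector cells. Of its 10 members 1 was lower and 1 higher in each population. That is 20% called in each, where 40% and 43.2% of all genes and 67.7% and 70.5% of those at or above the median brightness were. COX7A2, an accessory subunit that has a muscle counterpart, read 12.88, 12.94 and 12.79 with TPA in EVI1-labelled cells, against 12.45, 12.53 and 12.42 in ethanol. Empty vector cells gave 12.69, 12.62 and 12.75 with TPA, against 12.37, 12.28 and 12.35 in ethanol. The groups were apart, with rises of 0.40 ± 0.08 (adjusted p = 5.11e-04) and 0.35 ± 0.08 (adjusted p = 0.00140). COX7B fell, with differences of -0.21 ± 0.08 (adjusted p = 0.0390) and -0.23 ± 0.08 (adjusted p = 0.0229), and the first of these calls was lost in 9 of 20 alternative settings. The mean of its probe sets gave -0.37 in empty vector cells. COX4I1, the subunit through which ATP is known to slow the enzyme, differed by -0.05 (95% interval -0.20 to 0.10) in EVI1-labelled cells and by -0.08 (95% interval -0.23 to 0.07) in empty vector cells. Another bright probe set of COX4I1, with a mean of 11.9, gave 0.05 and -0.04 and was not called. A dim one, with a mean of 4.91, gave -0.45 ± 0.16 (called, adjusted p = 0.0394) and -0.39 ± 0.16 (not called). The other members, among them COX5A, COX5B, COX6A1, COX6B1, COX6C, COX7C and COX8A, differed by -0.13 to 0.22 and were not called. A second probe set of COX5A, with a mean of 7.48 where the one used had 12.6, was called lower at -0.73 ± 0.14 and -0.94 ± 0.14. A second probe set of COX6A1, with a mean of 4.48, was called higher in EVI1-labelled cells, at 0.24 ± 0.09. In empty vector cells it gave -0.03 ± 0.09 and was not called.

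A sign of RNA quality also moved with TPA. The gap between 3' and 5' control probe sets of ACTB averaged 1.31 ± 0.17 with TPA and 1.85 ± 0.13 with ethanol, over 6 arrays each (two-sided exact permutation p = 0.00216), and that of GAPDH was 0.398 ± 0.113 and 0.570 ± 0.145 (exact permutation p = 0.0476). Its part in the differences between TPA and ethanol was not tested. When arrays were centred on the hybridisation controls instead, 8 members were lower and 2 higher in EVI1-labelled cells and 20 lower and 2 higher in empty vector cells. Over all genes 34.3% and 39% were called after that centring. In empty vector cells that setting put SDHA at -0.44 and COX7B at -0.39, both called, and COX7A2 at 0.20, NDUFA1 at 0.10, UQCRB at 0.08 and NDUFA13 at 0.04, none called. The calls of NDUFB10, NDUFS6, SDHC and CYC1 held in both populations, those of NDUFV1 and COX7A2 in EVI1-labelled cells and those of NDUFS3 and NDUFB9 in empty vector cells under all 20 alternative settings. NDUFV1 in empty vector cells and NDUFS3 in EVI1-labelled cells were not followed through the settings.

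Other genes of respiration were counted from lists that, like the members, were chosen with earlier results of these data known. Assembly factors of complexes I to IV, which build the complexes without staying in them, were mostly lower. Of 44 measured, 25 were lower and 5 higher in EVI1-labelled cells and 27 lower and 4 higher in empty vector cells, with medians of -0.39 and -0.49. Their shares called, 68.2% and 70.5%, were close to the 67.7% and 70.5% of genes at or above the median brightness, as were their median differences without regard to sign, 0.49 and 0.54, beside 0.48 and 0.53. UQCC3, needed for the assembly of complex III, fell, with differences of -2.17 ± 0.08 and -2.33 ± 0.08, and so did BCS1L, which inserts the Rieske protein into complex III, at -1.63 ± 0.11 and -1.81 ± 0.11. NDUFAF1, which assists complex I assembly, rose by 0.52 ± 0.08 and 0.70 ± 0.08. The median of the 48 subunits was -0.06 and -0.12 in the same comparisons.

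Regulators of respiratory genes were lower for 11 and higher for 3 of 15 in EVI1-labelled cells and lower for 10 and higher for 2 in empty vector cells, with medians of -0.78 and -0.73. That is 93.3% and 80% called, where 40% and 43.2% of all genes and 67.7% and 70.5% of those at or above the median brightness were. MYC fell, at -2.58 ± 0.09 and -2.86 ± 0.09, as did TFAM, which packs and transcribes mitochondrial DNA, at -1.18 ± 0.10 and -1.39 ± 0.10. NRF1, whose motif was searched for above, was lower at -0.93 ± 0.08 and -1.15 ± 0.08. HIF1A, known for its part in the response to low oxygen, rose by 0.73 ± 0.09 and 0.92 ± 0.09.

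ATP synthase subunits encoded in the nucleus were lower for 5 and higher for 1 of 16 in EVI1-labelled cells and lower for 10 and higher for 1 in empty vector cells. These shares, 37.5% and 68.8%, were below the same 67.7% and 70.5%, and the first was also below the 40% of all genes. ATP5MC1, one of the genes for the ring subunit, fell, at -1.02 ± 0.08 and -0.94 ± 0.08, while ATP5F1E rose by 0.50 ± 0.10 and 0.26 ± 0.10. Electron carriers and enzymes of coenzyme Q synthesis were lower for 6 and higher for 1 of 14 in EVI1-labelled cells and lower for 8 and higher for 0 in empty vector cells, shares of 50% and 57.1% that were also below those of genes at or above the median brightness. PDSS1, which makes the tail of coenzyme Q, fell, at -1.82 ± 0.12 and -1.98 ± 0.12. Of 11 measured citric acid cycle genes, 5 were lower and 2 higher in EVI1-labelled cells and 8 lower and 2 higher in empty vector cells. The shares were 63.6% and 90.9%, below and above the 67.7% and 70.5% of brighter genes, and IDH3A had the largest falls, at -0.57 and -0.86.

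Subunits from mitochondrial DNA had 7 of 13 genes measured, of which MT-ND6 was lower, at -0.86 ± 0.28 in both populations, and the other 6 were not called. Of 6 measured nuclear-encoded subunits outside the 54 listed genes, 3 were lower and 1 higher in each population (NDUFA5 at -0.42 and -0.71, COX7A2L at 0.24 and 0.30). Of 7 isoforms known from particular tissues 1 was lower, COX8C, at -1.14 ± 0.09 and -1.13 ± 0.09. The shares called in each population were 14.3%, 66.7% and 14.3%, in the order given, where 40% and 43.2% of all genes were called. Among genes at or above the median brightness 67.7% and 70.5% were called. All 7 measured genes of mitochondrial DNA and all 6 other nuclear-encoded subunits were that bright, but only 1 of the 7 isoforms was.

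**Figure D3:**
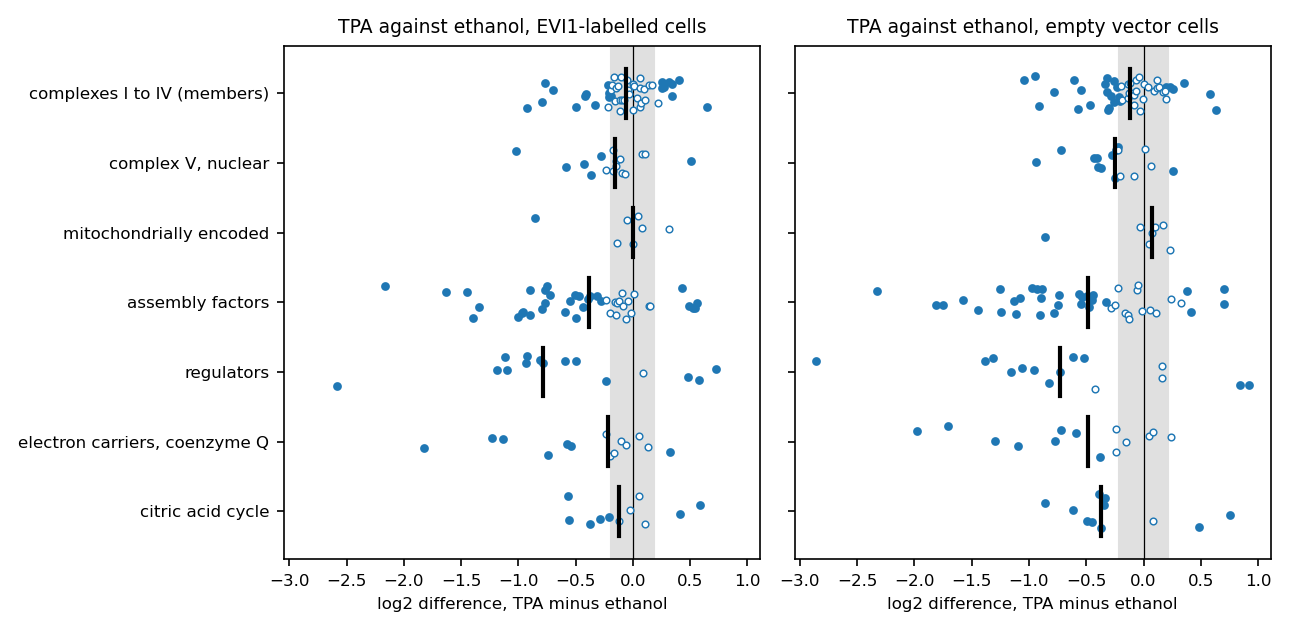
Log2 differences between TPA and ethanol for the subunits and for 6 lists of related genes, in EVI1-labelled cells and in empty vector cells. Each point is a gene, filled where the adjusted p is under 0.05, thick lines are medians, and the grey band holds the middle 50% of all genes. The subunits have medians of -0.06 and -0.12, assembly factors of -0.39 and -0.49, and regulators of -0.78 and -0.73.

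Between the populations the subunits differed by little. In ethanol, 1 of 48 members (2.08%) was called, where 3.27% of all genes were, 1.95% lower and 1.32% higher, and 5.6% of genes at or above the median brightness. It was NDUFA8, an accessory subunit that is folded in the intermembrane space, which read 11.10, 11.03 and 11.22 in EVI1-labelled cells, against 10.78, 10.70 and 10.82 in empty vector cells. The groups did not overlap, with a difference of 0.35 ± 0.08 (adjusted p = 0.0295), but the call was lost in 7 of 20 alternative settings, among them each setting without 1 of the 6 ethanol arrays. The median over the members was 0.07, and 35 of 48 were above 0, where 52.4% of all genes were. Values of EVI1-labelled cells lay above those of empty vector cells without overlap for 18 members and below for 4, where 10.6% and 11.4% of all genes did so.

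In TPA, 8 of 48 members (16.7%) were called, 7 higher and 1 lower in EVI1-labelled cells. Over all genes 11.2% were called, 5.9% higher and 5.3% lower, and among genes at or above the median brightness 18.9%. The median over the members was 0.16, against 0.007 over all genes, and 40 of 48 were above 0 (83.3%), against 51.9% of all genes. The values of EVI1-labelled cells lay above those of empty vector cells without overlap for 26 members and below for 3, where 11.9% and 10.5% of all genes did so. Members share the arrays and are not independent of each other.

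CYC1 had the largest difference, 0.39 ± 0.10 (adjusted p = 0.0212), from the readings with TPA given above, which did not overlap. COX6B1, a subunit of complex IV on the side where cytochrome c docks, read 12.22, 12.37 and 12.48 in EVI1-labelled cells with TPA, against 11.94, 12.07 and 12.05 in empty vector cells. Its groups did not overlap, and the difference was 0.34 ± 0.08 (adjusted p = 0.0175). NDUFA10 read 10.26, 10.35 and 10.39 in EVI1-labelled cells with TPA, against 10.08, 9.98 and 10.03 in empty vector cells, a difference of 0.30 ± 0.07 (adjusted p = 0.0175) without overlap. As the mean of all its probe sets NDUFA10 differed by only 0.05 (adjusted p = 0.795), and NDUFB7 by 0.13 (adjusted p = 0.253). NDUFA13, NDUFA8, NDUFB7 and UQCRB were higher by 0.25 to 0.29, with adjusted p between 0.0219 and 0.0449.

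NDUFB9 was lower, at 13.40, 13.21 and 13.40 in EVI1-labelled cells with TPA, against 13.59, 13.56 and 13.71 in empty vector cells. This difference of -0.28 ± 0.08 (adjusted p = 0.0461) was lost in 12 of 20 alternative settings. None of the 8 calls held in every setting: each was lost in 4 to 15 of 20. The count was 21 with a variance that follows brightness and 0 when only the TPA arrays were fitted, 1 without replicate 2 of either population in TPA, and 3 without replicate 1 or without replicate 3 of the empty vector cells in TPA. It was 5 without replicate 3 of the EVI1-labelled cells in TPA, without replicate 1 of either population in ethanol, or without replicate 3 of the empty vector cells in ethanol. Over all genes 12.3% were called with that variance, 6.28% with only the TPA arrays and 7.75% to 13.2% with an array left out.

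**Figure D4:**
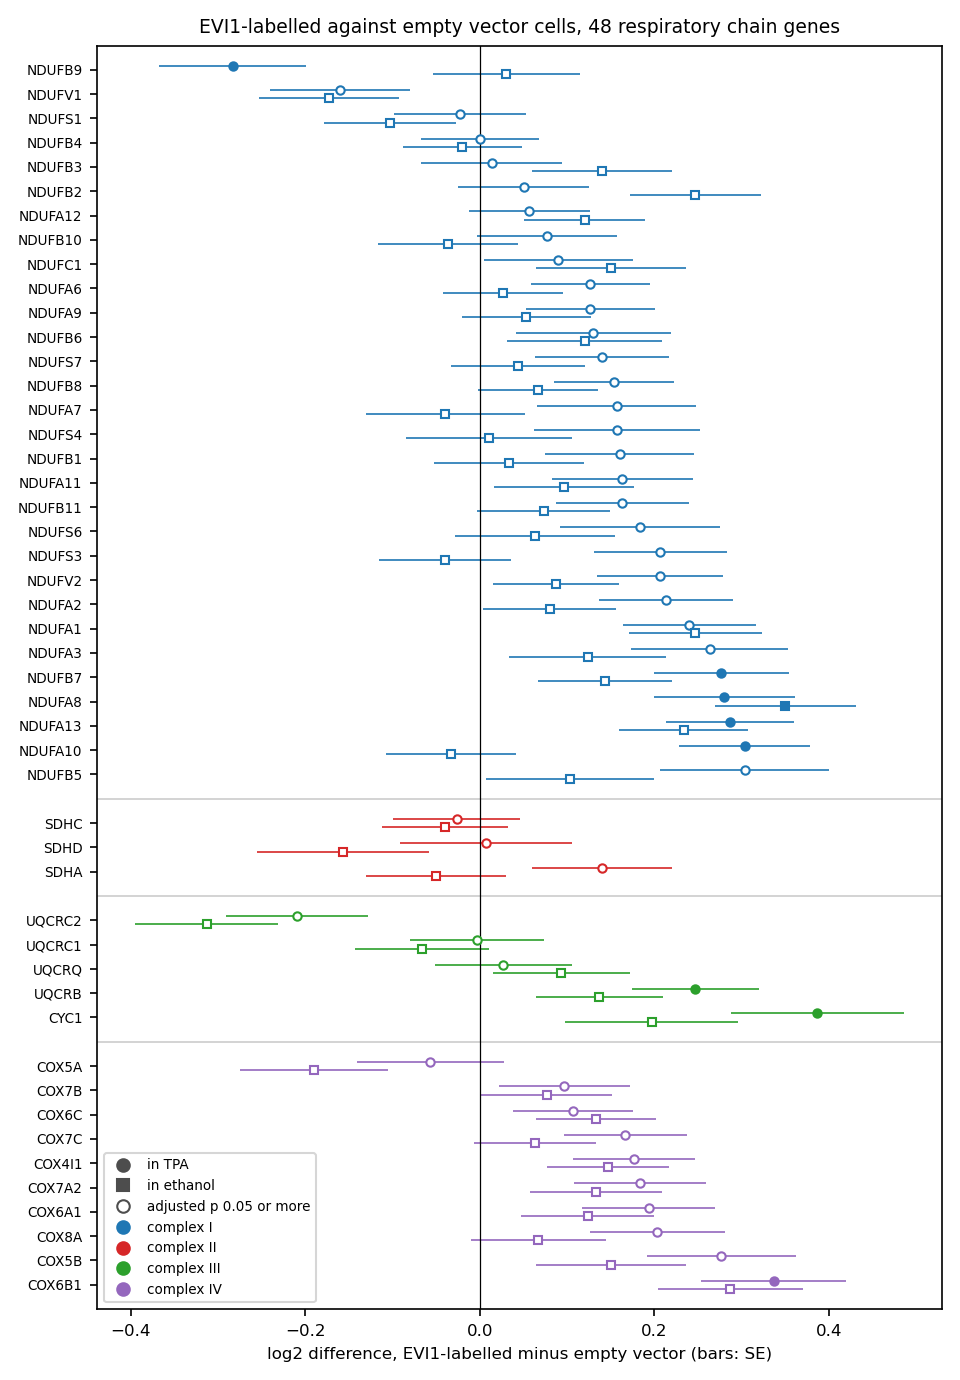
Log2 differences between EVI1-labelled and empty vector cells for the 48 measured subunits, grouped by complex (colours), in TPA (circles) and in ethanol (squares). Bars are SE, and filled symbols have an adjusted p under 0.05. Most symbols lie to the right of 0, within 0.4 of it, and 8 members in TPA and 1 in ethanol are filled.

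The response to TPA itself, taken as the difference in EVI1-labelled cells minus that in empty vector cells, differed for 0 of 48 members by limma, where 1.98% of all genes were called. The count was 0 in every alternative setting as well. An unadjusted p under 0.05 was seen for 3 members (6.25%), where 12.5% of all genes had one. These were NDUFA10 at 0.34 ± 0.11 (adjusted p = 0.153), NDUFB9 at -0.31 ± 0.12 (adjusted p = 0.266) and NDUFS3 at 0.25 ± 0.11 (adjusted p = 0.355). The 95% intervals of all 48 members lay between -0.57 and 0.57, so a larger difference in response than this was outside the interval of every member. The calls made in 1 population only thus do not show that the member concerned responded differently. As a set the members leaned to 1 side. Their median was 0.09, against 0.007 over all genes and 0.04 over genes at or above the median brightness. Of the 48 members 39 were above 0 (81.2%), against 51.1% and 58.6% of those genes. This lean was not tested, and the members share the arrays.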

How the data were processed

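Per the labels' protocols, 250 ng of RNA from each of 12 samples was amplified from the 3' end and biotinylated. Per the submitters' processing notes, the authors used RMA and Affymetrix Expression Console 1.3, and the deposited values are the resulting log2 signals per probe set. RMA gives all arrays the same distribution and so hides changes shared by most genes. Of 54675 probe sets, 41097 name 1 gene, 1801 several and 11777 none in the platform annotation, and each of 19775 genes was given its single-gene probe set with the highest mean. Of the 48 members 27 had more than 1 such probe set. No called member with several had one called the other way (0 by limma at adjusted p under 0.05). No other probe set was called the same way for 7 of 13 such members with TPA in empty vector cells, 3 of 8 with TPA in EVI1-labelled cells and 2 of 3 between the populations in TPA.

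A limma 3.58.1 model (R 4.3.3) with 4 group means was fitted to all 12 arrays. Its two-sided tests used empirical Bayes moderation, with 8 residual degrees of freedom and 5.22 from the prior, and Benjamini-Hochberg adjustment over all genes. The number of arrays limits the precision, with a median SE of 0.11 for a simple comparison and 0.15 for the difference in response. In data simulated for TPA in empty vector cells, 62.5%, 95.5% and 100% of changes of 0.5, 1 and 2 were recovered over 19775 genes, with 4.62% false calls. Only 200 genes of each size were changed there, drawn from genes of any brightness, where the real comparison called 43.2% of all genes. The simulated recovery therefore need not hold for the members. Nothing in the labels shows whether replicates were transduced separately, so p-values measure the spread between these samples.

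Members and lists were chosen with earlier results of these data known. Members named with values were, in each complex and TPA comparison, up to 3 called members with the largest fall and 3 with the largest rise, and up to 10 called members in each other comparison. Other members were named after their values were seen. Up to 2 genes each way were taken from a list, and NRF1, whose motif was searched, was named in addition. Arrays of the same replicate number correlated in their deviations from group means at 0.130 to 0.415 between the populations in TPA, which passes the limit of 0.1 for pairing. In the other comparisons the lowest values were 0.075 to 0.091. Alternatives changed the probe set rule, the scaling, a filter on dim genes, the variance model, the arrays fitted and the replicate block.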

Additional observations from a re-analysis of the deposited data

How the results depend on the processing

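The count of members changed by TPA in empty vector cells stayed within 1.5 times of 25 in all 20 settings. Leaving out 1 array gave 15 to 20 called members in EVI1-labelled cells and 20 to 28 in empty vector cells, with medians of -0.089 to -0.048 and -0.128 to -0.089. Over all genes 36.5% to 40.1% and 39.7% to 44.8% were called. Centring on the hybridisation controls gave 10 called members in EVI1-labelled cells, against 20, and 34.3% of all genes called, against 40%. It gave a median of -0.277 in empty vector cells. That setting moved the median of all genes to -0.139 in empty vector cells, against 0.017 before, and to 0.140 for the difference in response, whose member median became 0.221, so relative to all genes the members moved far less.

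Comparisons between the populations depended on the setting. In ethanol the count of 1 became 6 with genes below the median brightness left out, 6 with a variance that follows brightness, 0 with hybridisation controls (member median 0.02), and 0 to 1 with an array left out (median 0.056 to 0.098). Over all genes fitted, 7.83%, 3.65%, 2.04% and 1.87% to 3.98% were called in these settings. In TPA the count of 8 became 16 with dim genes left out, 21 with the variance trend, 5 after centring on the gene median, 1 with hybridisation controls (median 0.235), 0 with only the arrays compared, and 1 to 7 with an array left out (median 0.132 to 0.172). The shares of all genes fitted that were called there were 24.5%, 12.3%, 10.8%, 7.71%, 6.28% and 7.75% to 13.2%. The mean of all probe sets gave a median of 0.113. The cause was not tested. For the difference in response, leaving out an array gave 0 to 0 members and medians of 0.072 to 0.099.

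With the replicate block, which pairs the samples in the comparison of populations in TPA, 10 members were called there, and none of the 8 named members lost its call. Over all genes 12.6% were called with it. In ethanol, where the numbers did not pass the limit for pairing, the block gave 2 members and 3.69% of all genes. No named result was reversed in any setting. Signals near the dim end are compressed, which touches the dim second probe sets. Whether bright signals were compressed too, such as the means of 12.1 to 12.9 in complex IV, was not tested.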

Other observations

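Some genes around the chain differed between the populations and are named here after their values were seen. Of 44 assembly factors, 4 were lower and 0 higher in EVI1-labelled cells in ethanol (limma, adjusted p under 0.05), and 3 lower and 4 higher in TPA. These are 9.09% and 15.9% called, where 5.6% and 18.9% of genes at or above the median brightness and 3.27% and 11.2% of all genes were. PET117, which assists complex IV assembly, averaged 7.11 ± 0.11 in EVI1-labelled and 8.09 ± 0.12 in empty vector cells in ethanol (SD, n = 3 each; adjusted p = 1.27e-04), and 6.51 ± 0.15 and 7.19 ± 0.11 in TPA (adjusted p = 6.19e-04). NDUFAF5, which modifies the complex I subunit NDUFS7, differed by -0.70 ± 0.10 in ethanol and -0.91 ± 0.10 in TPA, and LYRM7, a chaperone of the Rieske protein, by -0.81 ± 0.12 and -0.56 ± 0.12.

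DLD, the dehydrogenase shared by the 2-oxoacid dehydrogenase complexes, was higher in EVI1-labelled cells by 0.53 ± 0.09 in ethanol (adjusted p = 0.00533) and 0.78 ± 0.09 in TPA (adjusted p = 1.12e-04). In TPA, 5 of 11 citric acid cycle genes were higher in EVI1-labelled cells and 1 was lower, where 5.9% of all genes were higher and 5.3% lower, and 18.9% of brighter genes were called either way. COQ8A, a kinase-like protein of coenzyme Q synthesis, averaged 9.37 ± 0.20 in EVI1-labelled cells with TPA, against 9.57 ± 0.02 in ethanol, and 8.35 ± 0.10 in empty vector cells with TPA, against 9.65 ± 0.01 in ethanol. Its response to TPA differed between the populations by 1.09 ± 0.14 (adjusted p = 0.00114), and that of COQ4 by 0.55 ± 0.13 (adjusted p = 0.0496), where none of the 48 subunits passed the test.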
